A study of Mus musculus with 4 samples.

Results

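The mitochondrially encoded transcripts mt-Nd1, mt-Nd2, mt-Nd3, mt-Nd4, mt-Nd5, mt-Co1, mt-Co2, mt-Co3, mt-Atp6 and mt-Cytb were followed in single-cell RNA libraries from mouse TC-1 tumours. These 10 were taken by symbol from the 31053 features of the deposited tables, where 13 symbols start with mt-, and every deposited barcode was used with no limit on mitochondrial content. The other mt- features, mt-Atp8, mt-Nd4l and mt-Nd6, enter the totals and are given beside the 10 where shares are compared. TC-1 is a tumour line of mouse lung epithelium, and 300000 of its cells were placed under the skin of WT mice of strain C57/bl6. When the tumour measured 40 mm², mice received PBS or 1 intraperitoneal dose of cisplatin, a DNA-damaging platinum compound, at 6 mg/kg. The PBS library has no day in its labels, which also call its source untreated, and the cisplatin libraries were taken from tumours collected at day 1, day 3 and day 7. Neither the animals' age nor the number of mice behind a library is given in the labels. Each group is 1 library, so no test was possible. Intervals below are 95% and cover counting error only, and treatment, tumour age, sort and library preparation cannot be told apart.

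Mitochondrial DNA is a small circle that is copied into long RNAs from both strands, and these are cut, largely at the transfer RNAs between the genes, into the messenger and ribosomal RNAs. The messengers encode core subunits of the respiratory chain. The Nd genes encode parts of complex I, which takes electrons from NADH, and mt-Cytb encodes cytochrome b of complex III. The Co genes encode the catalytic core of complex IV, cytochrome c oxidase, which passes electrons to oxygen, and mt-Atp6 and mt-Atp8 encode membrane subunits of complex V, the ATP synthase. All other subunits of these complexes come from nuclear genes. In droplet libraries a high share of mitochondrial RNA is widely used as a mark of damaged cells, and such barcodes are often left out.

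Droplet libraries of this kind count molecules from their poly(A) end. The cut messenger need not end at the last annotated base, and those of mt-Co1 and mt-Nd5 run on past the stop codon. The last 30 bases of each annotated gene are shown 5′ to 3′ on the gene's own strand, from the GENCODE vM21 transcripts on mm10. The annotated stop codon, or the letter that the tail completes to a stop codon, is in capitals.
mt-Nd1: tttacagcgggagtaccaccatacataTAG
mt-Nd2: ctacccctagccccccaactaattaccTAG
mt-Nd3: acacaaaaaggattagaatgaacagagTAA
mt-Nd4: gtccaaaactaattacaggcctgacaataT
mt-Nd5: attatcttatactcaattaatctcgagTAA
mt-Cytb: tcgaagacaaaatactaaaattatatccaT
mt-Co1: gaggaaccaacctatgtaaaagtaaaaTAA
mt-Co2: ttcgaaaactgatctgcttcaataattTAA
mt-Co3: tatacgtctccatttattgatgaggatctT
mt-Atp6: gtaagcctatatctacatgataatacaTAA

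The annotated ends of mt-Nd4, mt-Cytb and mt-Co3 stop 1 base into a codon, so these messengers have no stop codon until the tail is added. Whether other messengers are cut inside their annotated stop codon cannot be read from these sequences. All 10 genes lie on the + strand of chromosome M as annotated exons without introns, from mt-Nd1 at chrM:2751-3707 to mt-Cytb at chrM:14145-15288. Between them lie mt-Nd2 at chrM:3914-4951, mt-Co1 at chrM:5328-6872, mt-Co2 at chrM:7013-7696, mt-Atp6 at chrM:7927-8607, mt-Co3 at chrM:8607-9390, mt-Nd3 at chrM:9459-9806, mt-Nd4 at chrM:10167-11544 and mt-Nd5 at chrM:11742-13565. Neighbours overlap by 43 bases for mt-Atp8 and mt-Atp6, by 7 for mt-Nd4l and mt-Nd4 and by 1 for mt-Atp6 and mt-Co3, and mt-Nd5 overlaps mt-Nd6 of the opposite strand by 14 bases. Counts of overlapping neighbours are therefore uncertain where reads fall in the shared bases.

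Barcodes numbered 10063 in PBS, 10745 on day 1, 6264 on day 3 and 2981 on day 7, with 59915831, 82493626, 36587207 and 16153484 UMIs (unique molecules counted) in that order. The 10 transcripts make up at least 99.0% of all mt- UMIs in each library. The sort took CD45+ lin- CD90+ CD127+ cells, a gate for innate lymphoid cells, but at least 5 UMIs of the macrophage genes C1qa, C1qb and C1qc were found in 89.7%, 87.1%, 73.4% and 87.8% of barcodes. This count alone does not mark macrophages, since 69.6%, 91.0%, 64.9% and 58.6% of barcodes with at least 2 UMIs of Cd3d, Cd3e and Cd3g had it too, at median depths of 3183, 9402, 5157 and 3408.5 UMIs beside 5444, 6281, 4923 and 4814 for all barcodes. As a share of a barcode's UMIs the sets differed: the median was 1.12%, 0.78%, 0.59% and 1.26% C1q over all barcodes and 0.36%, 0.56%, 0.18% and 0.28% in those with Cd3. Any pair of libraries shared between 4 and 32 barcode sequences.

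Transcripts of complexes V and IV led the PBS library. In UMIs per kilobase of gene, mt-Atp6 held 25.6% of the mt- sum, mt-Co3 21.6%, mt-Co2 20.7% and mt-Co1 10.9%. The next by length-scaled level were mt-Cytb with 5.70%, mt-Nd1 with 3.87%, mt-Nd4 with 3.16%, mt-Nd3 with 3.09%, mt-Nd2 with 2.66% and mt-Nd5 with 0.45%. Counts from the 3′ end need not scale with length, and without that scaling mt-Atp6, mt-Co3 and mt-Co1 lay close together at 20.4%, 19.9% and 19.7% of mt- UMIs. The 3 features outside the group were rare in PBS, with 0.17% for mt-Atp8, 0.53% for mt-Nd4l and 0.031% for mt-Nd6.

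**Figure D1:**
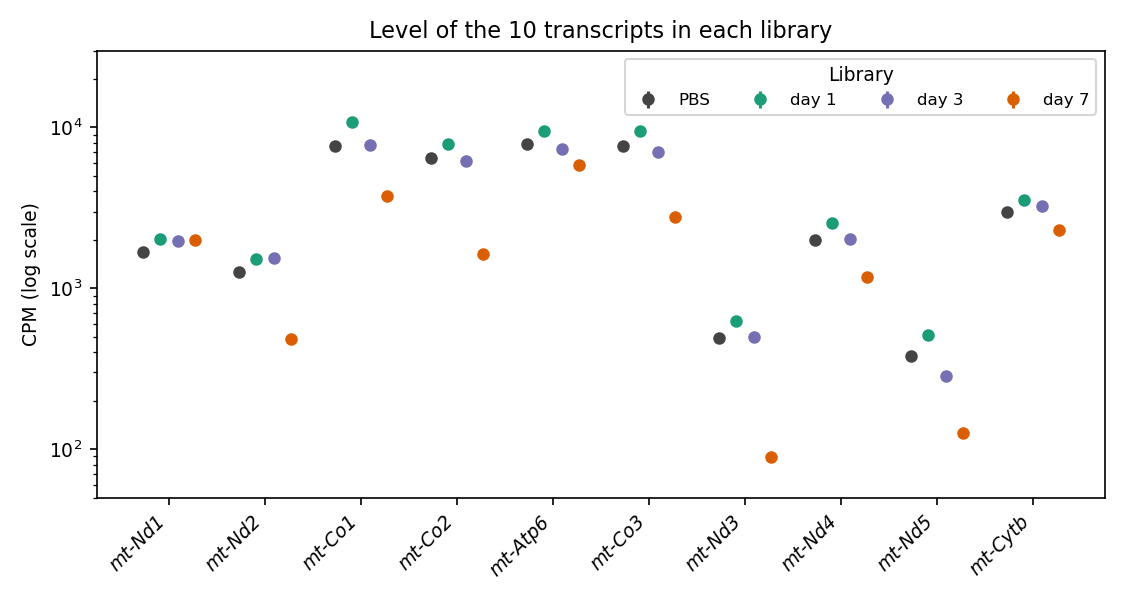
Level in CPM (log scale) for the 10 transcripts, in the order of the genes on the mitochondrial genome, with 1 point per library and 95% Poisson bars, mostly smaller than the points. Day 7 is the lowest library for 9 of the 10, and mt-Nd1, at 1995 there, is above its PBS level.

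Summed over the 10, mitochondrially encoded transcripts took 3.85% of UMIs in PBS, 4.84% on day 1, 3.8% on day 3 and 2.01% on day 7. Day 1 was the highest library and day 7 the lowest, while day 3 lay close to PBS. Against PBS the log2 ratio was 0.33 (95% interval 0.33 to 0.33) on day 1, -0.02 (-0.02 to -0.02) on day 3 and -0.93 (-0.94 to -0.93) on day 7. The median barcode showed the same order, with a mitochondrial share of 3.20%, 4.13%, 2.88% and 1.86%. Barcodes above 10% mitochondrial UMIs, which such filters drop, were 18.9% of the PBS library, 28.9% of day 1, 19.1% of day 3 and 4.53% (95% exact interval 3.81 to 5.34) of day 7. They carried 25.2%, 35.4%, 33.6% and 8.20% of all mt- UMIs. The level of Malat1, a long RNA kept in the nucleus, was 15197, 26865, 23282 and 14927 CPM, and its part in the mitochondrial differences was not tested. With barcodes limited to at most 10% mitochondrial UMIs and at least 500 genes, the log2 ratios were 0.17, -0.19 and -0.70.

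On day 1 all 10 transcripts were above PBS, by 0.25 to 0.49 on the log2 scale, and none was 1.5-fold apart, where 21.3% of 13218 tested features were. A feature was tested when both libraries together held at least 50 UMIs of it, and all 10 passed in every comparison. The largest ratio of the 10 was that of mt-Co1, the oxidase subunit that binds the haem and copper centre. It had 7654 CPM (UMIs scaled to the library total) in PBS and 10754 on day 1 (log2 0.49, 0.49 to 0.50). The smallest of the 10 was that of mt-Cytb at 0.25 (0.25 to 0.26). Outside the group, the rare mt-Atp8, mt-Nd4l and mt-Nd6 were further above PBS, each past 1.5-fold, at log2 1.03, 0.63 and 0.83. The median of all tested features was itself 0.12 on day 1, and TMM scaling lowered every day 1 ratio by 0.12.

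On day 3 none of the 10 was 1.5-fold apart either, where 35.0% of 12462 features were, and the members split in direction. Of the 10, 6 lay above PBS and 4 below. The complex I transcripts were at both ends: mt-Nd2 had 1258 CPM in PBS and 1544 on day 3 (log2 0.30, 0.28 to 0.31). The lowest was mt-Nd5 with 377 and 285 (log2 -0.40, -0.44 to -0.37). All other members lay within 0.23 of PBS on this scale. Outside the group, mt-Nd4l was past 1.5-fold lower on day 3 (log2 -0.81), with mt-Atp8 at -0.42 and mt-Nd6 at -0.12.

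On day 7, 7 of the 10 were at least 1.5-fold lower than in PBS, where 14.7% of 12156 features were, and the members' median log2 ratio was -1.20 beside -0.01 for all tested features. The complex I transcripts spanned the whole range. In PBS, day 1, day 3 and day 7, mt-Nd3 had 489, 627, 499.5 and 89.0 CPM, which put day 7 5.49-fold below PBS (log2 -2.46, -2.53 to -2.38). It was the lowest ratio among the 10. Outside the group, mt-Nd4l, which lies between mt-Nd3 and mt-Nd4 on the same strand, was lower still at -2.58. It overlaps mt-Nd4 by 7 bases, and mt-Nd4 stood at -0.75, so counts of overlapping neighbours need not move together. The largest complex I gene here, mt-Nd5, had 377, 511, 285 and 126 (log2 -1.58 for day 7), and mt-Nd2 had 1258, 1527, 1544 and 486 (log2 -1.37). In mt-Nd4 the difference was smaller, with 1984, 2543, 2029 and 1182 (log2 -0.75). Against these, mt-Nd1, which encodes a membrane subunit at the quinone site of complex I, had 1685, 2015, 1974 and 1995 CPM. Over all barcodes it was the only member above PBS on day 7 (log2 0.24, 0.23 to 0.26), and all 3 cisplatin libraries lay above PBS for it. This direction depended on the barcodes taken: in those of no cell class gate, described below, its log2 ratios on days 1, 3 and 7 were -0.32, -0.19 and -0.23 with the first gates and 0.04, 0.30 and -0.0018 with the restated ones, and in the T cell gate on day 7 it was -0.02.

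The complex IV transcripts were all lower on day 7, by unequal amounts. For mt-Co2, which carries the copper site that receives electrons from cytochrome c, the 4 libraries had 6445, 7867, 6217 and 1627 CPM, so that day 7 was 3.96-fold below PBS (log2 -1.99, -2.00 to -1.97). The values of mt-Co3 were 7696, 9478, 7084 and 2764 (log2 -1.48), and those of mt-Co1 were 7654, 10754, 7731 and 3735 (log2 -1.04). In each of these 3 genes day 7 stood apart from the other libraries, which lay within 1.5-fold of each other. The complex III and V transcripts were less apart. The levels of mt-Cytb were 2969, 3541, 3241 and 2301 (log2 -0.37), and those of mt-Atp6 were 7922, 9553, 7385 and 5826 (log2 -0.44). Neither was 1.5-fold below PBS.

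The make-up of the mitochondrially encoded RNA, that is each transcript's share of all mt- UMIs, removes the difference in total. On day 7 the share of mt-Nd1 was 9.88% beside 4.35% in PBS, 2.27-fold higher, and the share of mt-Atp6 was 28.8% beside 20.4%. For mt-Cytb the shares were 11.4% and 7.66%, and for mt-Nd4 5.85% and 5.12%. Shares of mt-Co2 were 8.06% on day 7 and 16.6% in PBS, those of mt-Co3 13.7% and 19.9%, and those of mt-Nd3 0.44% and 1.26%. The share of mt-Co1, with 18.5% and 19.7%, had the log2 ratio nearest to 0 (-0.09). Lower shares on day 7 were also found for mt-Nd2 (2.41% beside 3.25%) and mt-Nd5 (0.62% beside 0.97%), and outside the group for mt-Atp8 (log2 ratio of shares -0.38), mt-Nd4l (-1.64) and mt-Nd6 (-1.12). Subunits of 1 complex therefore did not keep their proportions: the log2 ratio of shares of mt-Nd1 (1.18) and that of mt-Nd3 (-1.52), both of complex I, were the highest and the lowest of the 10.

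**Figure D2:**
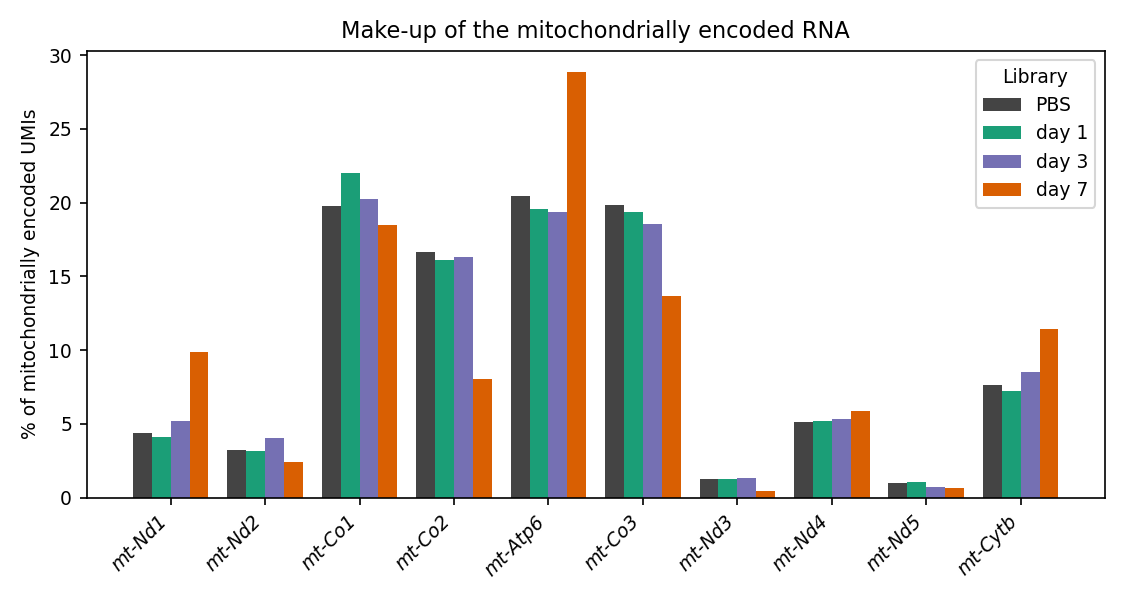
Share of mitochondrially encoded UMIs (%) held by each of the 10 transcripts, with 1 bar per library and the genes in genome order. The first 3 libraries are near each other, and day 7 has higher mt-Nd1, mt-Atp6 and mt-Cytb bars and lower mt-Co2, mt-Co3 and mt-Nd3 bars.

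By complex, the complex IV transcripts held 56.2% of mt- UMIs in PBS, 57.5% on day 1, 55.1% on day 3 and 40.2% on day 7. Complex V, with mt-Atp8 included, held 20.6%, 19.8%, 19.5% and 29.0%. Complex I held 15.5%, 15.5%, 16.9% and 19.4%, and complex III 7.66%, 7.24%, 8.49% and 11.4%. A single distance for the whole make-up is the share of mt- UMIs that would have to change gene to turn 1 library's make-up into the other's, a measure chosen after the data were seen. From PBS it was 2.67% to day 1, 3.21% to day 3 and 18.4% to day 7, and day 7 lay 19.9% from day 1 and 17.7% from day 3. Inside a library, the macrophage gate described below was 1.68% to 4.92% from the T cell gate and from ungated barcodes, and barcodes of low and high mitochondrial content were 3.32% to 4.21% apart. Among small gates, mast cell genes on day 1 and collagen genes (Col1a1, Col1a2 and Col3a1) on day 7 lay further out, at 10.7% and 9.45%. Dendritic cell genes (Ccr7, Fscn1 and Ccl22) did not, at 3.83% on day 1 and 4.50% on day 3. Nor did monocyte genes (Ly6c2 and Plac8) on day 3, at 4.24%. Each distance is from the macrophage gate of the same library. The 10 genes' position, length, A content, GC content and A content of the last 30 bases had Pearson correlations between -0.21 and 0.32 with the log2 ratio of shares on day 7 (n = 10 genes of 1 polycistronic genome, so a description only).

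The day 7 make-up was also seen in single barcodes, among those with enough mt- UMIs. From every barcode with at least 200 mt- UMIs, 200 were drawn, which left 5091, 7753, 2491 and 319 barcodes and left out 4972, 2992, 3773 and 2662. Those kept have more mt- UMIs, through depth or mitochondrial share, and are a smaller part of the library on day 7 than in the others. The median mt-Nd1 share was 4.0%, 4.0%, 5.0% and 9.5%, and the median mt-Co2 share was 16.5%, 16.0%, 16.0% and 8.0%. More mt-Nd1 than mt-Co2 was counted in 1 barcode of PBS (0.02%), 6 of day 1 (0.077%), 9 of day 3 (0.36%) and 206 of day 7 (64.6%, 95% exact interval 59.1 to 69.8). The pair was chosen after its values were seen. Both day 7 distributions were displaced from those of the other libraries and still overlapped them.

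**Figure D3:**
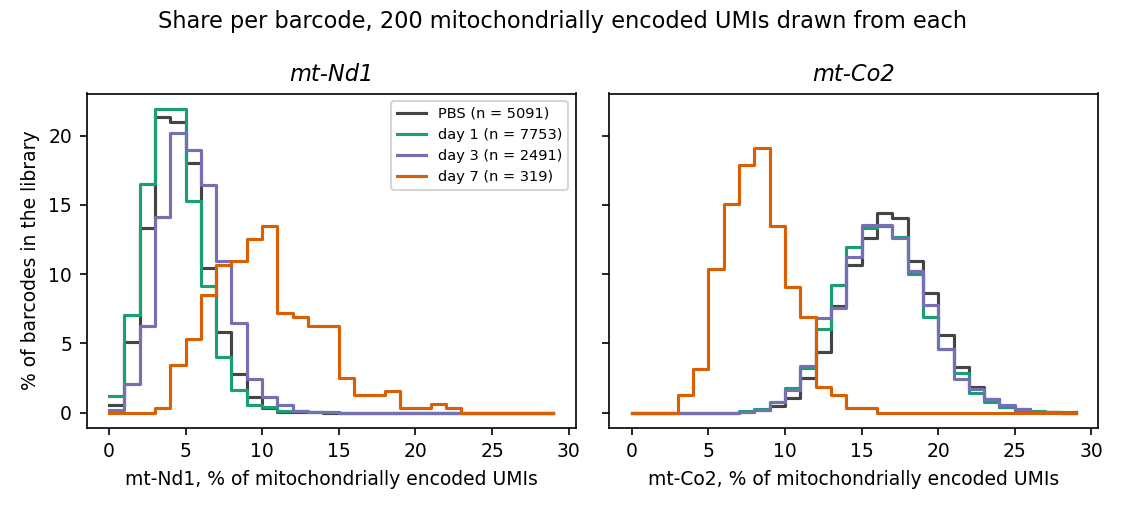
Share of barcodes (%) by their share of mt-Nd1 (left) and mt-Co2 (right) among 200 mitochondrially encoded UMIs drawn per barcode, in steps of 1 percentage point. The day 7 curve is moved to higher mt-Nd1 and lower mt-Co2 as a whole.

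The levels were then set out by cell class, gated on marker UMIs. The first gates limited C1q to 1 UMI in all classes but macrophages, and this left only 14, 14, 85 and 32 barcodes of the T cell gate (at least 2 UMIs of Cd3d, Cd3e and Cd3g). Barcodes with at least 5 C1q UMIs and none of Cd3d, Cd3e, Cd3g, Ncr1 or Klrb1c (84.8%, 66.4%, 55.5% and 78.2% of the libraries) held 3.64%, 4.83%, 3.44% and 1.99% of their UMIs in the 10 transcripts, and the T cell gate of day 3 held 2.72%. The 10 genes that led this C1q gate included cell cycle genes such as Ccnb2 and Cenpf and the stromal gene Col1a1. Fcrls, which also led the macrophage gate restated below, was among them. None of the macrophage genes listed to define or check the gate was, so it is not read as a cell type. After these counts had been seen, the limit was restated as C1q at 0.3% of a barcode's UMIs, with the macrophage gate above it. This gave 7756, 6258, 2972 and 2124 macrophage and 141, 390, 588 and 106 T cell barcodes. Among the 10 genes that led this macrophage gate were C1qa, C1qb and C1qc, which define it, and none of another list. Of 8 other macrophage markers, 8 were higher in it, none of them 2-fold (median log2 0.73). The same counts were found in the first C1q gate (median log2 0.37), so they do not tell the gates apart. Of 9 other T cell markers, 9 were at least 2-fold higher in the restated T cell gate. How far free RNA adds mt- UMIs to these barcodes was not tested.

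With the restated gates the macrophage barcodes held 3.69%, 4.85%, 3.32% and 2.03% of their UMIs in the 10 transcripts, and the T cell barcodes 3.02%, 3.79%, 3.1% and 1.61%. Summed over barcodes, the T cell gate was below the macrophage gate in all 4 libraries, at median depths of 2230, 4206.5, 3704.5 and 2119 UMIs beside 5694.5, 6873, 5755 and 4899.5. On day 3 the order turned for the median barcode, with a mitochondrial share of 2.77% in the T cell and 2.64% in the macrophage gate, and for barcodes of at most 10%, with 2.9% and 2.57%. Against PBS, the log2 ratio in the macrophage gate was 0.39 on day 1, -0.15 on day 3 and -0.86 on day 7. In the T cell gate it was 0.33 (0.30 to 0.36), 0.04 (0.01 to 0.07) and -0.90 (-0.95 to -0.86). In each gate 7 of the 10 were at least 1.5-fold lower on day 7, where 20.3% of features were in the macrophage gate and 18.3% in the T cell gate. Barcodes of no gate turned direction with the gates. Their summed log2 ratios were -0.31, -0.45 and -1.49 with the first gates, with all 10 below PBS on day 1, and 0.15, 0.11 and -1.13 with the restated ones. On day 7, 9 of the 10 were 1.5-fold lower in them under both, but the share of all features is not given for these barcodes. The make-up of day 7 lay 18.5% from PBS in the macrophage gate, 16.3% in the T cell gate and 18.2% in barcodes of no gate.

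**Figure D4:**
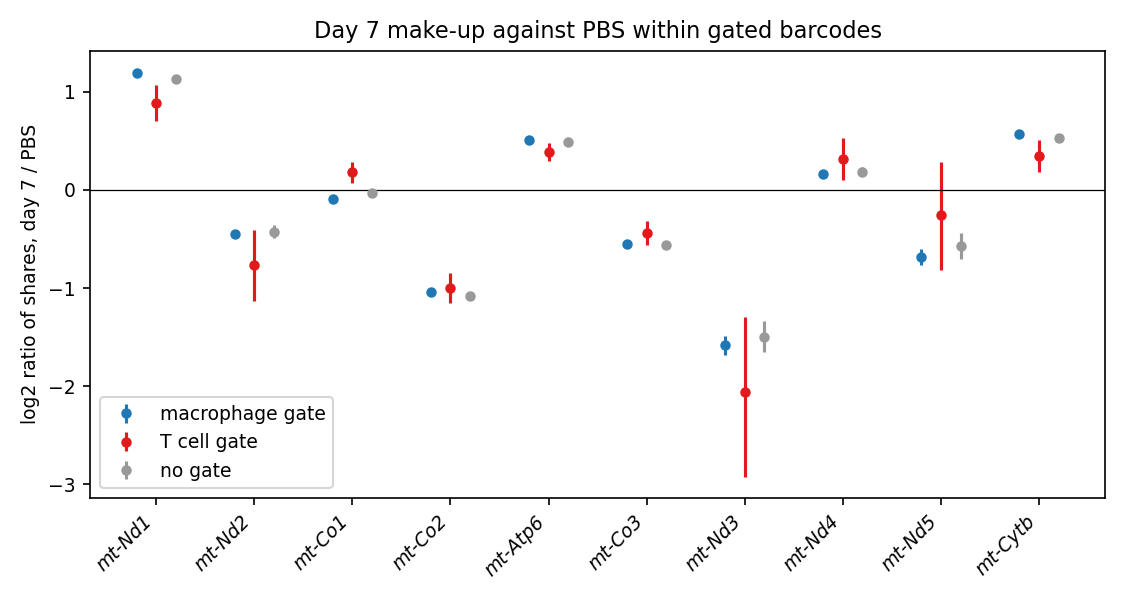
Log2 ratio of each transcript's share of mitochondrially encoded UMIs, day 7 over PBS, in barcodes of the macrophage gate, the T cell gate and no gate, with 95% counting intervals. The 3 sets follow each other for most genes, with mt-Nd1 highest and mt-Nd3 lowest in each, and mt-Co1 lies on different sides of 0.

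The T cell gate and the macrophage gate differed in the sign of the mt-Co1 share ratio on day 7. In the macrophage gate mt-Co1 was 20.3% of mt- UMIs in PBS and 19.1% on day 7, and in the T cell gate it was 19.3% and 21.9%. The difference between the gates was not tested. Among rarer classes, the 65 barcodes of day 1 gated on the mast cell genes Cpa3, Mcpt4, Cma1 and Tpsb2 had the highest level, 6.13% (6.04 to 6.22). Their mt-Atp6 share was 14.7% and their mt-Cytb share 11.9%, beside 19.5% and 6.92% in the macrophage gate of the same library. The 200 monocyte-gated barcodes of day 3 (Ly6c2 and Plac8) were low, at 2.12% (2.09 to 2.14). The stromal genes Lum and Col1a2 were among the 10 genes that led them. Dendritic-gated barcodes held 3.07% on day 1 and 2.92% on day 3, and collagen-gated barcodes of day 7 held 2.16%. For the median barcode of day 3, the mitochondrial share was as low in the dendritic gate (1.46%) as in the monocyte gate (1.45%). Too few natural killer and group 1 innate lymphoid barcodes (24, 26, 46 and 40) were found for a level.

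Barcodes were also divided by their mitochondrial percent, from 0 to 5% up to above 50%. The mt-Co1 share was lower in barcodes with more mitochondrial RNA. From the lowest to the highest bin it was 20.4% and 17.3% in PBS, 23.0% and 18.6% on day 1, and 21.6% and 16.5% on day 3. The mt-Co3 share was higher, with 19.3% and 21.3%, 18.7% and 21.0%, and 17.9% and 20.3%. On day 7 only 1 barcode was above 50%, and from the lowest bin to 20 to 50% (41 barcodes) mt-Co1 went from 18.6% to 17.6% and mt-Co3 from 13.4% to 15.5%. The mt-Co2 share on day 7 lay between 7.90% and 8.07% in every bin. Other values moved with these bins: in PBS, from the lowest bin to 20 to 50%, the median depth was 6583.5 and 981.5 UMIs. The share of barcodes in the first C1q gate, which is not read as a cell type, was 89.6% and 54.5%. Malat1 among nuclear UMIs was 13613 and 58644 CPM in the same bins. Their part in the differences was not tested.

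**Figure D5:**
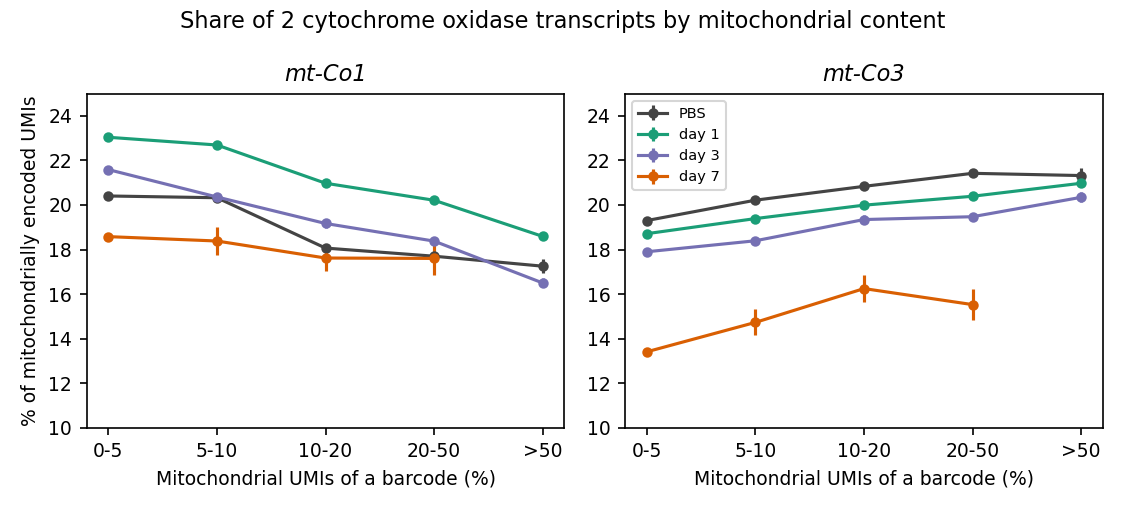
Share of mitochondrially encoded UMIs (%) of mt-Co1 (left) and mt-Co3 (right) in barcodes binned by mitochondrial percent, 1 line per library with 95% exact intervals, for bins of at least 20 barcodes. In PBS, day 1 and day 3 the mt-Co1 lines end lower and the mt-Co3 lines higher than they start, and the axis starts at 10%.

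Between barcodes of a library, mt-Co1 varied most for its depth. For barcodes with at least 200 mt- UMIs, squared deviations of its count from the library's share were summed and divided by the sum for binomial counting. The ratio was 5.52, 13, 22.1 and 5.41 in PBS, day 1, day 3 and day 7, the highest of the 10 in each. Barcodes with more mt- UMIs weigh more in this ratio, so its size is not compared between libraries. The next was mt-Cytb in the first 3 libraries, with 3.18, 6.22 and 11.9, and mt-Nd1 on day 7 with 5.20. By contrast mt-Nd5 had the lowest ratio of the 10 in each library, at 1.30, 1.43, 1.55 and 1.07. Among the abundant transcripts mt-Co2 was low, at 1.43, 1.82, 1.67 and 1.61. Over barcodes the shares of mt-Co1 and mt-Cytb had Pearson correlations of -0.50, -0.57, -0.56 and -0.42. Shares of 1 total pull against each other, so these are descriptions of barcodes that share a library and a denominator.

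By median, nuclear genes of complexes I, III and IV lay nearer to PBS on day 7 than the mitochondrially encoded members of the same complex, but those of complex V did not. Among all tested features, 19.3% were at least 1.5-fold higher and 14.7% lower on that day. Of 36 complex I genes 0 were higher and 2 lower, Ndufs1 and Ndufs6 (median log2 ratio -0.13). Of 9 complex III genes 0 were higher and 1 lower, Uqcr11 (median -0.12), and of 11 complex IV genes 0 passed in either direction (median -0.13). Complex V had 0 higher and 3 lower of 14 tested, Atp5e, Atp5h and Atp5a1 (median -0.43, beside -0.44 for mt-Atp6). Complex II, which has no mitochondrially encoded subunit, had 1 higher of 4, Sdhd (median 0.02). In PBS, complex IV had 2.80 mitochondrially encoded UMIs for each UMI of its 11 nuclear subunits, with 4.34 on day 1, 3.50 on day 3 and 1.11 on day 7. For complex V the ratios were 1.03, 1.59, 1.28 and 0.92, for complex I 0.75, 1.19, 1.06 and 0.54, and for complex III 0.95, 1.42, 1.45 and 0.85. Day 1 and day 3 were above PBS in all 4 complexes, and day 7 below. These ratios count mt-Nd4l, mt-Nd6 and mt-Atp8 with their complexes. On day 1 the nuclear lists had medians below 0, namely -0.36, -0.37, -0.32 and -0.40 for complexes I, III, IV and V, while all 10 members were above 0. Day 3 medians of the same lists were -0.42, -0.38, -0.33 and -0.45, while the summed 10 members stood at -0.02. The higher day 3 ratios thus went with lower nuclear counts rather than a higher mitochondrially encoded sum.

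Among 24 genes of mitochondrial transcription and RNA handling, 1 was higher and 1 lower by 1.5-fold on day 7 (median -0.14). The higher was Fastk, founder of a family of mitochondrial RNA-binding proteins, with 16.7 CPM in PBS and 34.2 on day 7 (log2 1.03, 0.88 to 1.18). The lower was Tfb1m, which methylates the small ribosomal RNA of mitochondria, with 4.09 and 2.29 (log2 -0.84, -1.38 to -0.33). Mitochondrial ribosomal protein genes had 3 higher (Mrps28, Mrpl27 and Mrpl10) and 5 lower (Mrpl16, Mrpl13, Mrpl12, Mrpl3 and Mrps22) of 77 tested, with a median of -0.07. Of 9 mitophagy genes tested, 3 were higher, Fundc1, Bnip3l and Pink1, and 1 lower, Optn (median 0.41). The highest were Fundc1, a receptor on the outer membrane, at 40.1 and 69.5 CPM, and Bnip3l, another such receptor, at 75.2 and 121.

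The nuclear genes whose level was most like that of the 10 transcripts were sought over 13 points, each a restated gate of at least 50 barcodes in a library, among 7875 genes. The 5 highest Pearson correlations were those of Atp13a3 (0.87), Rpl23 (0.86), Hdlbp (0.85), Rps12 (0.85) and Rps21 (0.85). The first gates left 5 points and 5 other genes, Map3k7, Cep170, Herc2, Zfr and Mon2, so the genes named depend on the gates. Points of 1 library share its depth and preparation, and the correlations are a description.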

How the data were processed

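The deposited matrices hold raw counts of UMIs per feature and barcode, made by the authors with software version 3.1.0 per the file headers. Cell Ranger 3.1.0, Seurat 3.1.2 and mm10 stand in the submitters' processing notes, with no role given. Whether counting used strand is not given in the sources used here. Libraries were made with the 10x 3′ version 3 kit per the labels' protocols, at a stated 20000 reads per cell and 15000 captured cells. The members and lists were chosen with earlier results of these data known.

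All barcodes were summed per library and scaled to the library total as CPM (Python 3.11.15, numpy 2.4.6, scipy 1.17.1, pandas 2.3.3). Intervals are exact Poisson, Clopper-Pearson or, for ratios, conditional binomial, and were tested on simulated data. Features with at least 50 UMIs over both libraries counted as tested, and 1.5-fold as apart. Alternatives used edgeR 4.0.16 and DESeq2 1.42.0 for scaling only. All 10 members, and from each list the counts, medians and up to 2 genes at either end, could be named; some of these are not printed, and genes past 1.5-fold in small counts were named after their values were seen. Doublets were not called: an alternative leaves out mixed and very deep barcodes. Nuclear copies of mitochondrial DNA are not among the features. Coordinates and sequences came from GENCODE vM21 by Ensembl identifier. All 3 comparisons use the same PBS library.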

Additional observations from a re-analysis of the deposited data

Results flagged for a closer look

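On day 3 the summed transcripts lay on opposite sides of PBS in the 2 gates, with counting intervals that excluded 0 in both. The log2 ratio was -0.15 in the macrophage gate and 0.040 in the T cell gate. For mt-Nd4 the log2 ratios were -0.093 (macrophage) and 0.16 (T cell), and for mt-Co1 -0.10 (macrophage) and 0.082 (T cell). The difference between the gates was not tested, since each group is 1 library, and all 6 values are within 1.5-fold of PBS. The gates are those restated after the data had been seen.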

How the results depend on the processing

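No paired analysis was possible because each group is 1 library, and for the same reason no library could be left out. The counts of members 1.5-fold apart were 0 on day 1 under every setting run and 0 on day 3, except 1 (mt-Nd5) in barcodes of no gate under the first gates. On day 7 the count was 7, or 6 with a fold of 2 or with at most 10% mitochondrial UMIs and at least 500 genes, and 9 in barcodes of no gate. The share of all features is not given for these alternatives, except the restated macrophage and T cell gates. Of the 120 member ratios recomputed for each day, 110 kept their sign on day 1, 92 on day 3 and 117 on day 7, where the 3 that turned were those of mt-Nd1. Under the 4 settings planned for shares the largest move was 2.54 percentage points.

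The summed log2 ratios on days 1, 3 and 7 were as follows. With nuclear UMIs as the denominator the day 1 and day 7 ratios were 0.35 and -0.96. TMM scaling gave 0.21, -0.047 and -1.0, and DESeq2 size factors 0.23, 0.0092 and -0.95. Limiting barcodes to 10% mitochondrial UMIs and 500 genes gave 0.17, -0.19 and -0.70, and to 20% gave 0.21, -0.17 and -0.78. Barcodes of at least 1000 UMIs gave 0.35, -0.064 and -0.90. Without mixed barcodes and the top 5% by UMIs the ratios were 0.41, -0.012 and -0.95. Weighting barcodes equally gave 0.54, 0.17 and -1.30. The C1q gate gave 0.41, -0.083 and -0.88, and the restated macrophage gate 0.39, -0.15 and -0.86. The restated T cell gate gave 0.040 and -0.90 on days 3 and 7. Barcodes of no gate gave -0.31, -0.45 and -1.49 with the first gates, and 0.15, 0.11 and -1.13 with the restated ones. The gates by C1q percent and the barcodes of no gate were added after seeing the data. The cause was not tested. Day 3 had no steady sign, and day 1 turned in barcodes of no gate.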
